A study of Mus musculus with 7 samples.

Results

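The genes described here act in mitosis: they encode the cyclins and kinases that start division, the spindle checkpoint, the kinetochore, the spindle motors, condensin and the cytokinesis machinery. A list of 52 such genes was chosen by function, with earlier results of these data known. A gene was kept when its row in the deposited table was complete and its mean over both libraries was at least 1 FPKM (fragments mapped to a transcript, corrected for its length and for library depth). All 52 listed genes were kept, among 13419 genes analysed, and the member closest to the minimum was Mybl2 with a mean of 2.66 FPKM.

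The samples were sinoatrial nodes, the pacemaker region of the right atrium, from Sv129 mice at postnatal 3 weeks, and poly-A RNA was sequenced. Both day-6 groups carried floxed alleles of Baf250a (gene symbol Arid1a, which encodes a DNA-binding subunit of BAF chromatin remodellers), and there was 1 library in each. The Cre library came from Baf250af/f;Hcn4CreERT2 mice 6 days after tamoxifen, and the control library from Baf250af/f mice, for which the labels name no Cre and do not say whether tamoxifen was given. Hcn4CreERT2 is a tamoxifen-activated recombinase driven from a pacemaker channel gene, so the deletion is expected in Hcn4-expressing cells and not in the other cells of the tissue. The other 5 samples of the series, a control and a time course after tamoxifen, were not analysed here. How many mice gave each library is not stated, and with 1 library per group no difference below has a replicate check or a test of genotype.

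Genes of this kind are switched on together as a cell passes from DNA synthesis into division and are kept low in resting cells. The MuvB protein complex, with the pocket proteins or with the factors Mybl2 and Foxm1, acts on many of their promoters through a short element called the cell cycle genes homology region (CHR), often beside CCAAT boxes that bind the factor NF-Y. Heart muscle cells largely leave the cell cycle soon after birth, whereas developing lymphocytes divide actively.

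Promoter sequences show what the members share beyond their level. Windows of 300 bases (250 before the transcription start to 50 after it) were taken from RefSeq for build GRCm38.p6, where 44 of the 52 genes matched by symbol with 49 windows. The CHR element was searched as TTTGAA or TTCGAA and the CCAAT box as CCAAT, both on either strand, and 1 CHR element in the members overlapped a CCAAT box (Cdca8) and a pair of CCAAT boxes overlapped each other (Ube2c). A CHR element was present in 71.4% of the members' windows, against 19.2% of all 32851 windows in the table. For the CCAAT box the shares were 75.5% and 37.4%, and for both together 63.3% and 7.52%. More than 1 CCAAT box stood in 46.9% of the members' windows and in 11.7% of all windows. Of the 44 genes, 8 had neither element in the window (Birc5, Mad2l1, Melk, Mybl2, Ncaph, Nuf2, Nusap1 and Pttg1), which says only that these letters were not found there.

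The matches had preferred places. In the first 25 bases after the start 28.6% of the members' windows held the beginning of a CHR match, against 1.43% of all windows. The CCAAT box was most frequent from 75 to 50 bases before the start, in 34.7% of the members' windows and 6.99% of all windows.

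**Figure D1:**
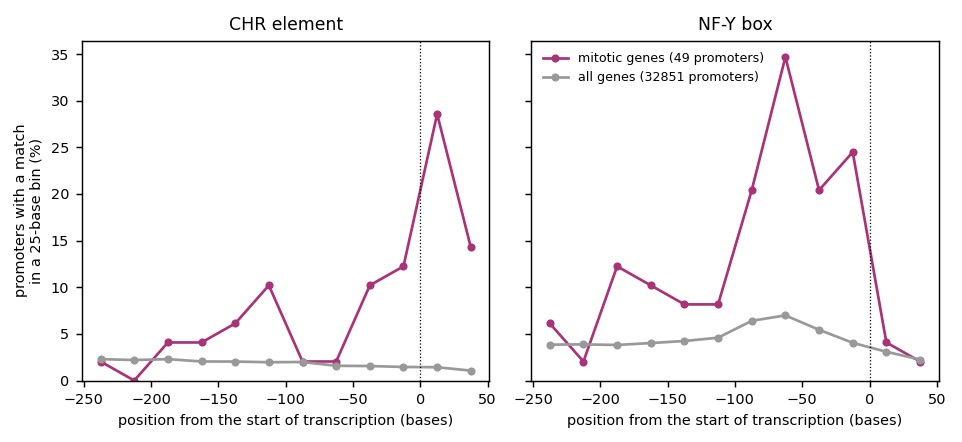
Share of promoter windows (vertical axis, percent) with a match that begins in each 25-base bin, by position from the transcription start (horizontal axis, bases), for the CHR element (left) and the CCAAT box, the binding site of NF-Y (right). The line of the 49 windows of mitotic genes peaks at 28.6% just after the start for the CHR element and at 34.7% for the CCAAT box before it, while the line of all 32851 windows stays below 7%.

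The sequences below belong to the 3 members with the lowest and the 3 with the highest log2 ratio of FPKM + 1 (Cre over control) among those with a window, and Cdk1, the central mitotic kinase, was added after its values were seen. Each is the strand of the gene, 5′ to 3′, upstream of the most upstream RefSeq start, and capitals mark CHR elements and CCAAT boxes on either strand. Stretches that an annotated transcript of the gene covers were left out. In Top2a, the topoisomerase that untangles chromosomes (chr11:99024190-99024439, minus strand), 4 CHR elements and 6 CCAAT boxes were found.
Top2a: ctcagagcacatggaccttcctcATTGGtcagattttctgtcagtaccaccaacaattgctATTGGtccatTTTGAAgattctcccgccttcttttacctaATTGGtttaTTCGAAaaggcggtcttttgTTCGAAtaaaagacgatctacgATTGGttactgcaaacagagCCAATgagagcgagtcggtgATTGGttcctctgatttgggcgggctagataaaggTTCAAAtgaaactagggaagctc
Mki67, the source of the proliferation marker Ki-67 (chr7:135716380-135716629, minus strand), had 2 CHR elements and 3 CCAAT boxes.
Mki67: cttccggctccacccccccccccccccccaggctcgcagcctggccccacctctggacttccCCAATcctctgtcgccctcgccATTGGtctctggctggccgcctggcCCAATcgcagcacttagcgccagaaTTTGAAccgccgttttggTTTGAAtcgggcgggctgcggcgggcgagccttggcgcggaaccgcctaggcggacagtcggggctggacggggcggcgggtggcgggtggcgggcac
Kif11, the motor that pushes spindle poles apart (chr19:37376132-37376381, plus strand), had 1 of each close to the start.
Kif11: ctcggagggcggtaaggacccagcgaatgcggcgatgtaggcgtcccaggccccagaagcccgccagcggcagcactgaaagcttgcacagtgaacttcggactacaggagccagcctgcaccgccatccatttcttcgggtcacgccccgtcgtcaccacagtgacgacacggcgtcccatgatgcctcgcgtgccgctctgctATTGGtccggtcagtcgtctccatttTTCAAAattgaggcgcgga
For Cdk1 (chr10:69352939-69353162, minus strand) the printed stretch, which ends 27 bases before the start, held 1 CHR element and 3 CCAAT boxes, and another CHR element lay 15 bases before the start.
Cdk1: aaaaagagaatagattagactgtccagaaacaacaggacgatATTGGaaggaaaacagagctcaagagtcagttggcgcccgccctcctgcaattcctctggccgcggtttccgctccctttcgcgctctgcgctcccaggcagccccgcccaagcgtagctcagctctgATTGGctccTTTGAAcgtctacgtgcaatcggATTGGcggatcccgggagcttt

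The 3 members with the highest log2 ratios, Bub3, Cenpa and Anln, have elements in their windows too, but not in the stretches that could be printed. Anln (chr9:22389207-22389456, minus strand), a scaffold of the contractile ring, had 2 CHR elements 22 and 29 bases after the start and no CCAAT box.
Anln: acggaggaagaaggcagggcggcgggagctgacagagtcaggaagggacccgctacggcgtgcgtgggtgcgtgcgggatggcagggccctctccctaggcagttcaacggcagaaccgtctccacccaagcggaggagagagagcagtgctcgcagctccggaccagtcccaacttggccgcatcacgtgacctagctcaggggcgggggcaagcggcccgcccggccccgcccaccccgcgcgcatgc
Cenpa (chr5:30666636-30666776, plus strand), the histone variant that marks centromeres, had CCAAT boxes that begin 109 and 86 bases before the start and a CHR element 17 bases after it, all outside the printed stretch.
Cenpa: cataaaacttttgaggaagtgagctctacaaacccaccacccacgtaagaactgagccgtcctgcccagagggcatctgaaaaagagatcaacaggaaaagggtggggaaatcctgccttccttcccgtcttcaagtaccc
Bub3 (chr7:131560120-131560221, plus strand), a checkpoint protein, had CCAAT boxes 74 and 32 bases before the start and a CHR element 43 bases before it, again outside the printed stretch.
Bub3: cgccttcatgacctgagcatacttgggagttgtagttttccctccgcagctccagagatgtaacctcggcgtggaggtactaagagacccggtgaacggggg
The 3 printed members at each end of the log2 ratios all held CHR elements in their windows, and Anln lacked a CCAAT box. The 8 members with neither element had log2 ratios from -4.27 (Birc5) to -1.81 (Mybl2). No relation between the elements and the size of the difference was tested.

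All 52 mitotic genes were lower in the Cre library than in the control library, as were 54.1% of all genes analysed. Their levels added up to 1871 FPKM without Cre and 149.6 FPKM with it, so the Cre library held 7.999% of the control sum. On the scale used for counting, the log2 ratio of FPKM + 1 (whose pseudocount of 1 understates differences of weakly expressed genes), 52 of 52 differed by at least 2-fold downward and 0 upward. Of all genes analysed 10.4% were at least 2-fold lower and 6.07% at least 2-fold higher. The median log2 ratio of the members was -3.29, ranging from -5.03 to -1.26, beside a median of -0.07 over all genes analysed. In 41 of 52 members the Cre level was at most 10% of the control level, as it was in 3.02% of all genes analysed. The median member retained 5.93% of its control level and the median gene 94.5%. In bulk tissue, fewer cells of a dividing type and less RNA per cell cannot be told apart. Where a pair of FPKM values follows a gene or list, the control library is given first and the Cre library after it.

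The levels themselves barely overlapped. Control values ran from 4.70 FPKM (Mybl2) to 174 FPKM (Top2a), with a median of 28.0 FPKM. Cre values ran from 0.389 FPKM (Kif18b) to 26.8 FPKM (Bub3), with a median of 1.62 FPKM, and 13 of the 52 were below 1 FPKM. Only 5 members, Bub3, Smc4, Cenpa, Ncapd2 and Mad2l1, had a Cre level above the lowest control level of any member. The order of the genes was largely shared, with a Spearman correlation of 0.733 between their control and Cre levels across the 52 genes, which come from the same pair of libraries and are not independent.

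**Figure D2:**
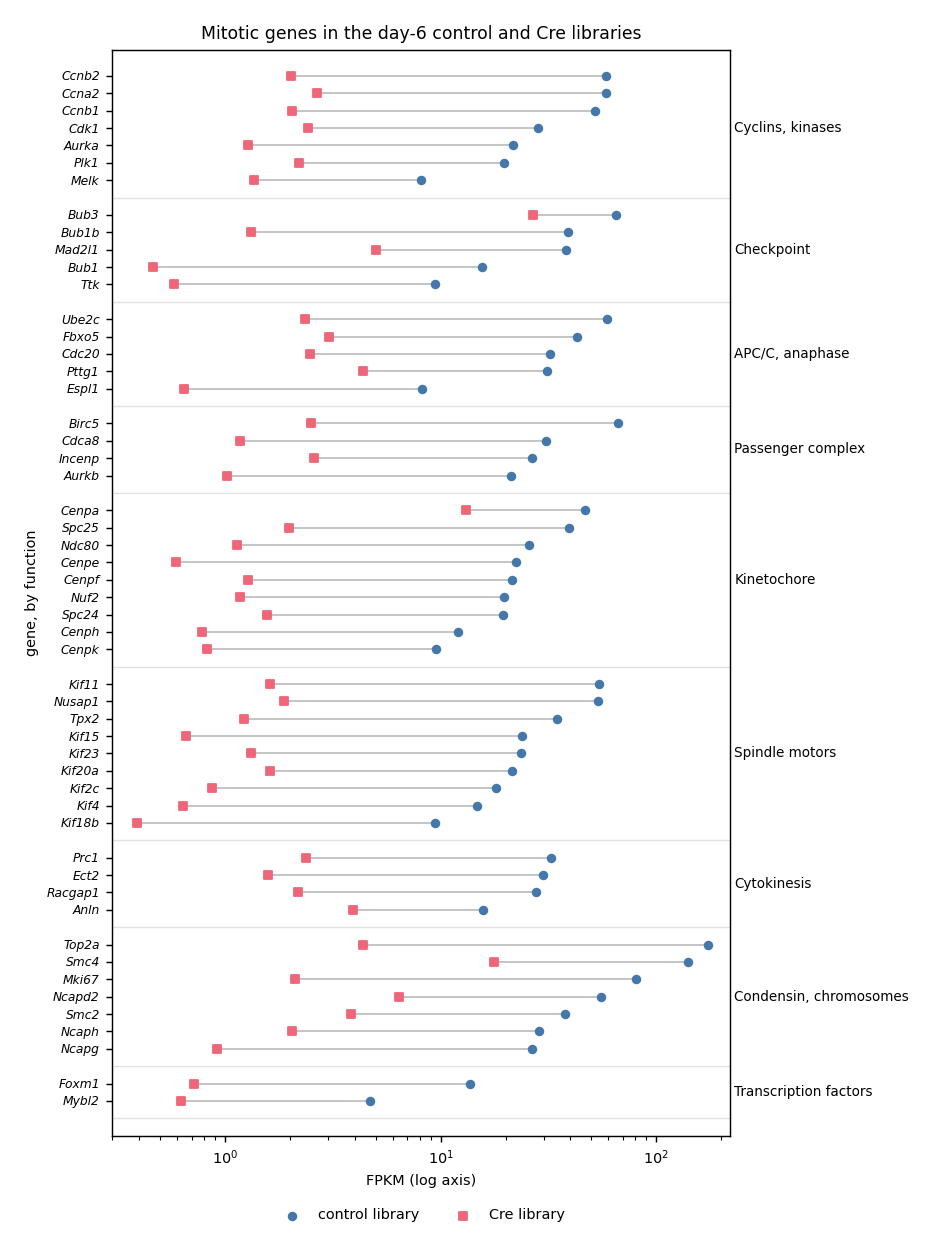
Level of each of the 52 mitotic genes (rows, grouped by function) in the control library (circles) and the Cre library (squares), in FPKM on a log axis. There is 1 library per group, so no error bars are drawn; every square lies left of its circle, with the shortest line for Bub3 (65.3 and 26.8 FPKM) and the highest circle for Top2a (174 FPKM).

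Markers of other cells moved with these genes. All 20 T cell and thymocyte markers were at least 2-fold lower with Cre (median log2 ratio -6.30). Their levels added up to 3297 FPKM without Cre and 15.9 FPKM with it, none was listed at 0, and 17 of 20 were below 1 FPKM in the Cre library. Rag1, a recombinase of developing lymphocytes, measured 436 FPKM in control tissue against 0.832 FPKM with Cre. Of 6 genes of thymic epithelium 4 passed the expression minimum, and all 4 were at least 2-fold lower; the levels of all 6 added up to 372 and 3.29 FPKM. The T cell markers retained 0.280% of their control level in the median and the mitotic genes 5.93%. The part of these cells in the lower mitotic genes was not tested.

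Markers of most other cells did not differ in that way. Fibroblast, endothelial, smooth muscle, adipocyte and cardiomyocyte markers were at least 2-fold lower in 0 of 40 genes, with list medians from 0.31 to 0.89. At least 2-fold higher were 4 of 10 cardiomyocyte, 2 of 7 smooth muscle and 1 of 8 fibroblast markers. No endothelial or adipocyte marker was, and the share over all genes analysed was 6.07%. Macrophage markers, of which 1 of 8 was at least 2-fold lower, added up to 311 and 270.0 FPKM, and red cell markers to 538 and 308 FPKM, with both analysed genes lower by less than 2-fold. Of 3 B cell markers analysed 1 was at least 2-fold lower, Cd79b at 8.34 and 3.34 FPKM, and the other two were higher by less than 2-fold. The 8 markers of the labelled tissue were weak in both libraries, with sums of 13.5 and 21.5 FPKM. The 6 that passed the expression minimum were all higher with Cre, and 1 was at least 2-fold higher, Cacna1g at 1.57 and 4.37 FPKM. Hcn4, which was below that minimum, measured 0.605 FPKM in control tissue against 0.719 FPKM with Cre, and Isl1 had 1.69 and 2.02 FPKM. Lung epithelial markers were higher in 10 of 10 genes, with sums of 4194 and 18643 FPKM. Sex-linked genes also separated the libraries, with Xist at 0.379 and 93.2 FPKM, so sex and genotype cannot be told apart. Arid1a, the floxed gene, was at 34.9 FPKM in the control library and at 12.3 FPKM in the Cre library. Its q-value in the authors' deposited table was 0.838, and this whole-gene level does not isolate the floxed exons.

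**Figure D3:**
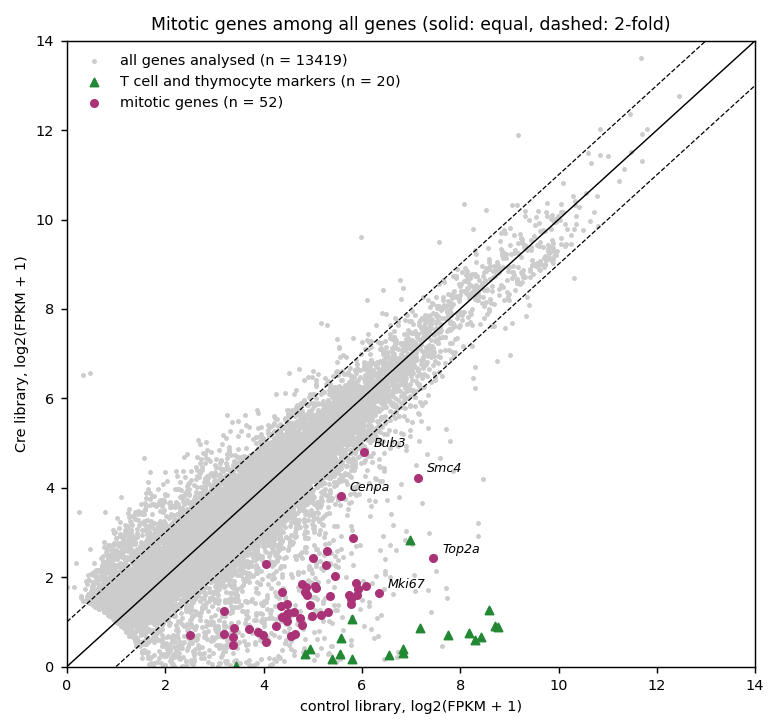
Level in the Cre library (vertical axis) against the control library (horizontal axis), both as log2(FPKM + 1), for all 13419 genes analysed (grey), the 52 mitotic genes (purple circles) and 20 T cell and thymocyte markers (green triangles); the solid line marks equal levels and the dashed lines 2-fold differences. All mitotic genes lie below the lower dashed line and the T cell markers lie further below it, at a median log2 ratio of -6.30 against -3.29.

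Cyclins and mitotic kinases were lower in 7 of 7 genes, with a median log2 ratio of -3.31. Cdk1, whose kinase activity drives entry into mitosis, stood at 28.2 FPKM without Cre and 2.41 FPKM with it, 8.56% of control. Its cyclin partners had higher levels than Cdk1 in the control library. Ccnb2 had 58.6 and 2.03 FPKM, and Ccnb1 had 52.0 and 2.03 FPKM, so the B cyclins retained 3.47% and 3.91%. Ccna2, the cyclin of DNA synthesis and early mitosis, had 58.2 and 2.66 FPKM. The 3 cyclins thus had similar levels within each library, and each was lower in proportion than Cdk1. Named pseudogenes of Ccnb1 and Ccnb2 exist in the RefSeq gene table, so reads of these genes can be shared with a copy and their values are less certain.

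Of the kinases that build and ripen the spindle, Aurka lay at the group's median and Plk1 had a smaller difference. Aurka, the centrosome kinase, reached 21.7 FPKM in control tissue and 1.28 FPKM in Cre tissue, a log2 ratio of -3.31. Plk1, which acts at centrosomes, kinetochores and the cleavage site, had 19.7 and 2.19 FPKM (-2.70). The smallest difference of the group was that of Melk, a kinase found in dividing and progenitor cells, at 8.10 and 1.36 FPKM (-1.95).

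The spindle checkpoint, which holds anaphase until every chromosome is attached, spread from 2.95% to 41.0% of control. Bub1, a kinase at unattached kinetochores, measured 15.6 FPKM in control tissue against 0.461 FPKM with Cre, 2.95% of control. Its relative Bub1b, the BubR1 subunit of the inhibitory checkpoint complex, had 38.9 and 1.31 FPKM, or 3.38%. Ttk, the kinase that starts the signal, had 9.45 and 0.580 FPKM, or 6.14%. All 3 of these genes were thus under 10% of control. Mad2l1, which binds and blocks Cdc20, had 38.3 and 5.04 FPKM, or 13.2%. Bub3, the adaptor that carries Bub1 and Bub1b to kinetochores, had 65.3 and 26.8 FPKM, or 41.0%, the highest remaining share among the 52 genes. Bub3 (mm9 chromosome 7, 138703904 to 138715412) made up 26.8 of the 34.2 FPKM left to the 5 checkpoint genes in the Cre library.

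Genes of anaphase entry were lower in 5 of 5: those that act on the anaphase-promoting complex (APC/C), the ubiquitin ligase that ends mitosis, and securin and separase. Cdc20, its mitotic activator, was at 32.0 FPKM in the control library and at 2.48 FPKM in the Cre library. Ube2c, the enzyme that hands it ubiquitin, had 59.1 and 2.34 FPKM, the lowest ratio of the group at -4.17. Fbxo5, an inhibitor of the complex also called Emi1, had 42.9 and 3.05 FPKM. Activator, enzyme and inhibitor were therefore lower together. Pttg1 (securin), which guards the protease separase, had 31.2 and 4.36 FPKM, and Espl1 (separase itself), which cuts cohesin, had 8.16 and 0.646 FPKM. The inhibitor retained 13.96% and the protease 7.92%.

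All 4 genes of the chromosomal passenger complex, which corrects faulty attachments and later guides cytokinesis, retained at most 10% of control, and their median log2 ratio was -3.66. Birc5 (survivin) stood at 66.6 FPKM without Cre and 2.49 FPKM with it. Cdca8 (borealin) had 30.9 and 1.17 FPKM, and the kinase Aurkb had 21.2 and 1.02 FPKM. Incenp, the scaffold, had the smallest difference, at 26.5 and 2.57 FPKM, or 9.71% of control.

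Kinetochore genes were lower in 9 of 9, and the 4 subunits of the Ndc80 complex, the direct link to microtubules, differed to a similar degree. Spc25 reached 39.6 FPKM in control tissue and 1.98 FPKM in Cre tissue, and its partner Spc24 had 19.5 and 1.56 FPKM. Ndc80 had 25.7 and 1.14 FPKM, and Nuf2 had 19.6 and 1.17 FPKM. The Cre levels of the 4 subunits lay between 1.14 and 1.98 FPKM and retained 4.43% to 7.98% of control. Cenpe, a kinesin that moves chromosomes to the spindle equator, had 22.4 and 0.594 FPKM, and Cenpf, a large outer kinetochore protein, had 21.4 and 1.27 FPKM.

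The inner kinetochore was less even. Cenph and Cenpk, subunits of the constitutive centromere network, stood at 12.1 and 9.48 FPKM without Cre and at 0.782 and 0.824 FPKM with it. Cenpa, the histone H3 variant on which the kinetochore is built, had 46.6 and 13.1 FPKM, or 28.1% of control (mm9 chromosome 5, 30969274 to 30977199). Cenph and Ccnb1 are neighbours on chromosome 13, separated by 2838 bases in mm9, and their Cre levels were 6.47% and 3.91% of control.

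Spindle motors and microtubule proteins were lower in 9 of 9 genes, all between 2.75% and 7.58% of control, with log2 ratios from -4.40 to -2.91. Kif11 measured 54.2 FPKM in control tissue against 1.62 FPKM with Cre. Kif15, a motor that can back up Kif11, had 23.9 and 0.655 FPKM. Tpx2, which activates Aurka and seeds microtubules, had 34.7 and 1.22 FPKM. These spindle assembly genes thus stood at 3.51% of control or less. Nusap1, a protein that bundles spindle microtubules, had 53.6 and 1.87 FPKM. Kif2c, a kinesin that takes microtubules apart, had 18.02 and 0.869 FPKM, and Kif18b, which works with it at microtubule ends, had 9.46 and 0.389 FPKM. Kif4, a chromosome-bound kinesin, had 14.8 and 0.639 FPKM, or 4.32% of control, within the range of the autosomal motors, and lies on the X chromosome (a named pseudogene makes its value less certain). The kinesins of the midzone, Kif23 and Kif20a, stood at 23.7 and 21.4 FPKM without Cre and at 1.31 and 1.62 FPKM with it.

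Cytokinesis genes were lower in 4 of 4, and 1 of them stood apart from the others. Prc1, which bundles the midzone, was at 32.6 FPKM in the control library and at 2.37 FPKM in the Cre library. Racgap1 and Ect2, which switch on RhoA at the cleavage site, stood at 27.8 and 29.9 FPKM without Cre and at 2.19 and 1.58 FPKM with it. Anln, which links actin, myosin and septins in the ring, had 15.6 and 3.91 FPKM, or 25.02% of control, where the other 3 retained between 5.27% and 7.88%.

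The highest control levels among the 52 genes were those of the chromosome structure genes Top2a, Smc4 and Mki67. Top2a (mm9 chromosome 11, 98854260 to 98885503) stood at 174 FPKM without Cre and 4.37 FPKM with it, 39.8 times lower and the lowest remaining share of all 52 genes at 2.51%. Mki67, whose protein coats mitotic chromosomes, had 80.5 and 2.12 FPKM, or 2.63%. Among the condensin I subunits, which fold mitotic chromosomes, the core ATPases Smc4 and Smc2 kept larger shares than Ncaph and Ncapg. Smc4 had 140.5 and 17.7 FPKM (12.6%), and Smc2 had 37.6 and 3.83 FPKM (10.2%). Ncapd2 had 55.5 and 6.40 FPKM (11.5%). Ncaph had 28.6 and 2.04 FPKM (7.12%), and Ncapg had 26.4 and 0.915 FPKM (3.46%). Smc2 and Smc4 also serve condensin II.

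The transcription factors of the program were both lower and included the weakest member. Foxm1, which drives genes of late division, reached 13.7 FPKM in control tissue and 0.717 FPKM in Cre tissue, a log2 ratio of -3.10. Mybl2 (B-Myb), the MuvB partner, had 4.70 and 0.624 FPKM, with a log2 ratio of -1.81, or of -0.79 and under the 2-fold size when the pseudocount was 5.

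Of the 52 genes 13 carried a significant call as lower with Cre in the authors' deposited table, against 0.656% of all genes analysed, and 0 of 52 higher, against 0.0149%. These were Top2a, Mki67, Kif11, Tpx2, Kif15, Cenpf, Bub1, Bub1b, Ccnb2, Ect2, Smc4, Nusap1 and Cenpe. In the authors' deposited table their q-values ran up to 0.0463, and the lowest q-value of an uncalled member was 0.0735. That test compares 2 libraries and not the genotypes. Of the 39 uncalled members 29 were at or below 10% of control, so a missing call does not mark a small difference.

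For 6 of the 52 genes the deposited locus is also that of another gene, and 5 of these had no call in the authors' deposited table. In the authors' deposited table Kif20a, listed with Brd8 and Cdc23, had a p-value of 0.251 at 7.58% of control. Cdc20, listed with Elovl1, had a p-value of 0.118 at 7.76% of control in the authors' deposited table, and Ncapg, listed with Lcorl, 0.0418 at 3.46%. The median p-value in the authors' deposited table was 0.0305 for the 6 genes with a shared locus and 0.00117 for the other 46. The median remaining levels were 4.90% and 5.96%, close to each other. Among members with a locus of their own the highest p-value in the authors' deposited table was that of Bub3, 0.110.

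**Figure D4:**
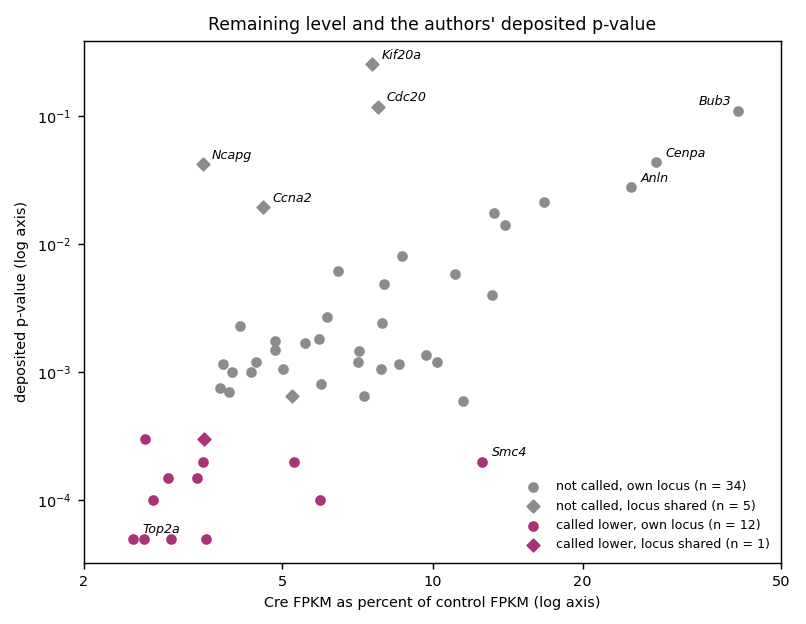
Deposited p-value (vertical log axis) against the Cre level as a percentage of the control level (horizontal log axis) for the 52 mitotic genes; purple points were called lower by the authors and diamonds mark the 6 genes with a shared locus. Kif20a, Cdc20, Ncapg and Ccna2 lie well above genes with a like remaining level, and Bub3, Cenpa and Anln lie at the right edge with 41.0%, 28.1% and 25.02% of control.

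Most other genes of the mitotic apparatus were lower too. The related lists were also chosen with earlier results of these data known. Of 64 further mitosis genes, none of them a member, 58 were at least 2-fold lower and 0 at least 2-fold higher, with a median log2 ratio of -2.39. The largest differences were those of Stmn1, a tubulin-binding protein, at 353 and 17.3 FPKM, and of Kif22, a chromosome-arm kinesin, at 44.0 and 1.402 FPKM. The smallest were those of Nek2, a centrosome kinase, at 13.9 and 11.9 FPKM, and Zwint, a kinetochore protein, at 22.1 and 17.1 FPKM. DNA replication genes were lower in 28 of 28, with a median of -2.11. Rrm2, which makes deoxynucleotides, had 88.2 and 3.37 FPKM, and the helicase subunits Mcm5 and Mcm2 stood at 32.2 and 32.4 FPKM without Cre and at 2.93 and 3.99 FPKM with it. The median remaining level was 18.3% of control for replication genes and 5.93% for the mitotic genes, and this difference between the lists was not tested.

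Partners that also act outside mitosis had smaller median differences. The list of the APC/C, which holds the activator Fzr1 and the enzyme Ube2s beside its subunits, was at least 2-fold lower in 1 of 14 genes. Its median was -0.47. The lower gene was Ube2s, the chain-elongating enzyme of the APC/C, at 142 and 48.9 FPKM, while the subunit Anapc13 had 103 and 107 FPKM. Cohesin holds sister chromatids together and also acts in interphase. Its list, which holds loading and regulatory factors beside the subunits, was lower in 10 of 10 genes, by at least 2-fold in 7. The median was -1.12 and the range -1.25 to -0.44. Rad21, the cleavable ring subunit of cohesin, had 107.5 and 47.4 FPKM. Condensin II was lower in 3 of 3, by at least 2-fold in 2, with Ncapg2 at 19.8 and 2.98 FPKM. Tubulins and the gamma-tubulin complex were lower in 12 of 16, by at least 2-fold in 3, with a median of -0.49, led by Tubb5 at 306 and 87.4 FPKM.

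Regulators that act ahead of mitosis were split. The MuvB, pocket protein and E2F list was lower in 14 of 16, by at least 2-fold in 11. E2f2 had 47.5 and 1.16 FPKM, and the repressor E2f8 had 11.9 and 0.412 FPKM, whereas the MuvB subunit Lin52 had 11.2 and 11.4 FPKM. Of the 3 NF-Y subunits 2 were at least 2-fold lower, Nfya at 15.7 and 5.56 FPKM and Nfyb at 29.6 and 12.2 FPKM. The third, Nfyc, had 43.1 and 45.2 FPKM. The list of first gap phase cyclins and kinases, which also holds their activating complex (Cdk7, Ccnh and Mnat1), was lower in 9 of 11. The difference was at least 2-fold in 4 genes of this list. Ccnd3, a D cyclin prominent in lymphocytes, had 160.2 and 25.9 FPKM, and Ccne1 had 9.13 and 0.976 FPKM. Ccnd1, named here after its values were seen, had 8.33 and 16.9 FPKM (log2 ratio 0.94, short of the 2-fold size). CDK inhibitors were at least 2-fold lower in 3 of 6 analysed and at least 2-fold higher in 0, with 4 below and 2 above equal levels. Cdkn3, a phosphatase of Cdk1 whose RNA is known to peak with mitosis, had 8.75 and 0.482 FPKM, and Cdkn1a (p21) had 16.8 and 31.5 FPKM, a log2 ratio of 0.87.

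**Figure D5:**
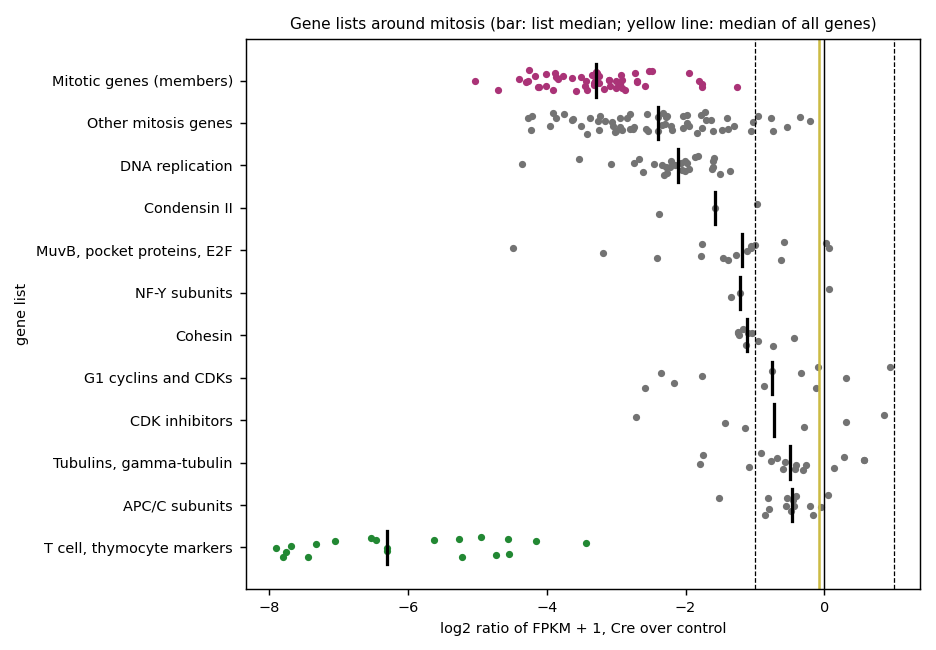
Log2 ratio of FPKM + 1 (Cre over control, horizontal axis) for each gene of the mitotic list, of 10 related lists and of the T cell markers (rows; points are genes, jittered vertically, and bars are list medians); dashed lines mark 2-fold differences and the yellow line the median of all genes (-0.07). The mitotic genes (median -3.29) lie lower than the related lists and the T cell markers (-6.30) lowest. The APC/C list, which also holds Fzr1 and Ube2s, and the tubulin list centre at -0.47 and -0.49.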

How the data were processed

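Poly-A RNA of mouse sinoatrial node was sequenced, and the table for the day-6 pair was analysed. Reads were processed with TopHat, Bowtie and Cufflinks on mm9, per the submitters' processing notes; the sources used here name no versions, annotation, strand use or scaling between libraries. The deposited values were taken as FPKM, per the file headers, 1 value per gene and library. In the same rows the authors deposited a p-value and q-value, a log2 ratio and a score (their test statistic). Read depth is unknown, so no counting interval is given.

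Of 15967 rows, 2 marked as not completed were left out, and 13419 genes whose mean reached 1 FPKM were analysed (Python 3.11.15, pandas 2.3.3). With 1 library per group, genes were counted at a log2 ratio of FPKM + 1 of at least 1 in size, and no test was run. Members, lists, the rule for named genes (every member, and up to 4 largest and 2 smallest ratios per related list) and alternatives were chosen with earlier results of these data known. Marker lists gave up to 4 genes of highest mean; Hcn4, Isl1 and Xist were named as markers of the labelled tissue and of sex. Only the 2-fold counting and the marking of shared loci were checked, on made-up input with known answers. Alternatives were pseudocounts, expression minimums, scalings and leaving out shared loci. Promoters came from RefSeq (GRCm38.p6), with exons from GENCODE M21.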

Additional observations from a re-analysis of the deposited data

How the results depend on the processing

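The 52 members stayed on the lower side of the 2-fold size under pseudocounts of 0.1, no expression minimum, the same upper quartile, TPM and centring on fibroblast and endothelial genes; a pseudocount of 5 left 51 of 52 (without Mybl2), a minimum of 5 FPKM 48 of 48, and leaving out shared loci 46 of 46. Their median log2 ratio ranged from -3.97 (pseudocount 0.1) to -2.19 (pseudocount 5), and the remaining share of their summed level from 5.81% (centring) to 9.43% (same upper quartile). The median of all genes (log2 ratio) was -0.07; it became 0.14 with the same upper quartile and -0.53 with the centring. Over all genes the number at least 2-fold lower went from 1397 to 805 with a pseudocount of 5 and to 3206 with the centring. The share of 2-fold differences towards the Cre library was 36.8%, and it was 55.8% with the same upper quartile, 22.8% with a pseudocount of 5 and 8.32% with the centring. Lists near the 2-fold size moved with the pseudocount of 5: cohesin to 4 of 10 at least 2-fold lower, MuvB and pocket proteins to 6 and NF-Y subunits to 1. The same upper quartile took cohesin to 3 and NF-Y to 1. With the centring the APC/C list went to 5 lower and the tubulin list to 8. With a minimum of 5 FPKM the CDK inhibitors went to 1 lower, and without shared loci the first gap phase list went to 2. No paired analysis was possible because there is 1 library per group, and for the same reason no library could be left out. The unknown read depth limits the Cre levels most, where 13 members were below 1 FPKM.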

Other observations

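The promoter elements described for the mitotic genes were also read across all genes analysed that had a window, mitotic genes included, as shares with no test. Of 751 genes with both a CHR element and a CCAAT box in a RefSeq window, 20.1% were at least 2-fold lower in the Cre library, and of 4656 genes with neither, 9.51% were. With a CHR element alone the share was 11.7% of 783 genes, and with a CCAAT box alone 9.84% of 3313. Leaving out the mitotic genes gave 17.0% of 723 genes with both elements and 9.36% of 4648 with neither. Leaving out all related lists as well gave 13.4% of 688 and 8.96% of 4608. With the mitotic genes and related lists included again, 6.13% of genes with both elements and 5.58% of those with neither were higher by 2-fold or more with Cre. This was a smaller gap than on the lower side. Genes with several listed starts have more windows and so more room for a match.

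The T cell and thymocyte markers, which had the lowest ratios of the lists described, held both elements in 2 of 24 windows (8.33%). The share was 7.52% of all windows, 5.36% for genes analysed with the mitotic genes left out, and 63.3% for the mitotic genes. The further mitosis genes held both in 49.0% of 49 windows, and DNA replication genes in 14.3% of 28 windows.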
